A study of Zea mays with 32 samples.

Results

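Slices 13 to 16 of the maize (Zea mays) root were compared with slices 2 to 4, that is, older tissue with the young tissue just behind the tip. The comparison takes 14 of the 32 RNA-seq libraries of the series, chosen by slice number alone: 8 libraries of slices 13 to 16 and 6 of slices 2 to 4. All come from 2 roots, A and B, of the inbred line B73, wild type, 7 days after germination. Plantlets were kept in a chamber at 26 °C under 12 h of light, on paper and not in a substrate. Both roots were pinned side by side and cut by hand from the tip backwards into 16 slices, with 1 library for each root and slice. Slice 1, which holds the very tip, was left out of both groups so that root cap genes would not mix with those of the dividing region. The labels give no slice a length or a zone.

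A root grows at its tip. Cells are made by division in the meristem behind the cap, then stop dividing, elongate many times over, and mature as the tip moves away from them. Mature root tissue carries root hairs, a suberised endodermis, lignified xylem and the transporters that take up water and ions, and lateral roots start there. Distance from the tip thus stands in for cell age, and a slice is a mixture of all cell types at that distance. The deposited identifiers come without gene names, and the reference table holds 0 of them, so cell type markers and pathways could not be looked up and no sequences are shown. The results describe how many genes changed, how far, where along the root, and the 4 genes with the most extreme changes.

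The libraries of slices 13 to 16 held 1632831 to 3779171 counts and those of slices 2 to 4 held 1008082 to 1573593, so the groups did not overlap in depth. At a common depth of 1000000 counts the libraries of slices 13 to 16 held 17414 to 19821 genes (median 18837) and those of slices 2 to 4 held 18475 to 19746. Levels are given in CPM, counts per 1000000 counts after TMM scaling (trimmed mean of M values, a correction for the make-up of a library). The TMM factors ran from 0.832 to 0.91 in slices 13 to 16 and from 1.151 to 1.249 in slices 2 to 4. The choice of scaling therefore bears on every direction below. The 2 roots were cut together, and slices of 1 root share a plant. The main fit had no root term and treated all 32 libraries as independent. Its spread came from differences between the 2 roots within a slice, pooled over the slices. The p-values thus assume an independence that slices of 1 root lack, and they cover these 2 roots only.

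A large part of the measured transcriptome differed between the older and the younger tissue. Of 19587 genes tested, 5552 (28.3%) were higher in slices 13 to 16 and 5413 (27.6%) were lower, at an adjusted p under 0.05 (edgeR quasi-likelihood test, Benjamini-Hochberg adjustment). The median change was 2.58 (log2) for the higher genes and −2.30 for the lower ones, against −0.02 over all genes tested. The median SE of a change was 0.50 for the higher genes and 0.52 for the lower ones. Each SE was derived as the absolute log2 change over the square root of edgeR's F statistic. It broke down at low counts, with a median of 2200 for genes under 1 CPM, and for some genes at higher levels. Zm00001d002412, for example, averaged 0.04 CPM in slices 13 to 16 and 20.4 CPM in slices 2 to 4. Its SE was 25395 and it was not called, so genes not called can still differ widely in mean CPM. Changes of at least 8-fold were called for 2334 higher genes (11.9% of those tested) and 1821 lower genes (9.3%). The 8-fold counts came to 1425 and 762 with the 2 blocks as groups, 1540 and 790 in root B alone and 1368 and 735 with a minimum mean of 10 CPM, and the lower count to 1003 with slice 1 added to slices 2 to 4. Their order turned with DESeq2 (1999 higher, 2041 lower) and with library totals alone (1925, 2384). In bulk slices, fewer cells of a type and less RNA per cell cannot be told apart. The balance of directions moved with the scaling, and with other choices listed at the end. DESeq2's size factors shifted the median change over all genes by −0.23 and library totals alone by −0.46. With library totals alone 4199 genes were higher and 6845 lower (38% of calls higher, against 50.6%).

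**Figure D1:**
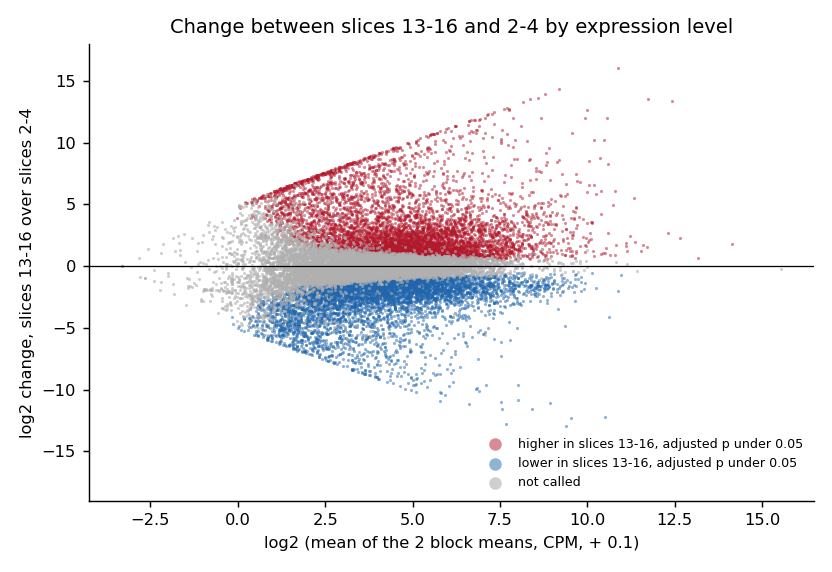
The log2 change of slices 13 to 16 over slices 2 to 4 is plotted against log2 of the mean CPM of both blocks for each of 19587 genes; colours mark the 5552 genes called higher, the 5413 called lower and the rest. Genes at high levels lie mostly above 0, and the straight upper and lower edges are genes with no or few counts in one block. The fitted change of such genes depends on the fit's own prior count, not on the one used for log2 CPM.

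The contrast between the blocks was wider than the differences inside them. Over the 12116 genes whose mean reached 10 CPM, a library of slices 13 to 16 and one of slices 2 to 4 differed by a median of 1.43 (absolute log2 difference, 48 pairs, 1.05 to 1.70 from pair to pair). Within slices 13 to 16 the median difference was 0.56 (28 pairs, 0.41 to 0.74), and within slices 2 to 4 it was 0.61 (15 pairs, 0.42 to 0.86). The most similar pair across the blocks was thus farther apart than the least similar pair within either. Every library of slices 13 to 16 lay above every library of slices 2 to 4 for 3166 genes (16.2% of those tested) and below for 2448 genes (12.5%). This order of the 2 counts turned with the scaling: they were 2757 and 2966 with DESeq2's size factors and 2364 and 3584 with library totals alone. Of the genes called higher, 56.7% had blocks without any overlap in CPM, and of those called lower, 45.1%.

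Both roots showed the change. The higher genes had a median log2 difference of 2.25 in root A and 2.14 in root B, and the lower genes of −2.16 in root A and −1.76 in root B (differences of mean log2 CPM). The direction was the same in both roots for 99.7% of the called genes, against 85.7% of all genes tested, although genes that move alike in both roots are also more easily called. Taken alone, with its slices as replicates, root A gave 4318 higher and 3939 lower genes and root B gave 3615 and 3542. The median absolute difference between the roots in the change of a called gene was 0.59 (log2).

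Abundant genes were mostly higher in the older tissue. Among 468 genes with a mean of both block means of at least 300 CPM, 274 (58.5%) were called higher in slices 13 to 16 and 145 (31%) lower, with a median change of 1.21 (log2) over all 468. Among 1381 genes between 100 and 300 CPM the shares were 49.7% higher and 28.5% lower, with a median change of 0.66. Between 30 and 100 CPM more genes were still higher (37.3% of 4472) than lower (27.5%). The order turned at 10 to 30 CPM, where 26.2% of 5834 genes were higher and 28.7% lower (median change −0.09). Between 3 and 10 CPM there were 21.3% of 5052 genes higher and 29.7% lower (median change −0.35). The share of genes called lower thus stayed between 27.5% and 31% from 3 CPM upwards, while the share called higher climbed with level. The median SE fell with level, from 0.70 between 3 and 10 CPM to 0.27 at 300 CPM and over, so small changes were easier to call in abundant genes. These shares hold for TMM scaling and were not computed under the others, whose shifts are given above.

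The RNA pool of the older tissue was made largely of the genes that were higher there. Genes called higher supplied 63.4% to 70.6% of the counts in the libraries of slices 13 to 16 (median 67.6%), against 18.9% to 21% in those of slices 2 to 4. Genes called lower supplied 7.68% to 13.4% of the counts in slices 13 to 16, against 41.6% to 50.3% in slices 2 to 4. Since the genes were called on these same libraries, the gap between the blocks follows from the calls. In slices 5 to 12, whose levels are not in the contrast although they share its estimate of the spread, the share from the higher genes grew in both roots. Roots A and B had 21.1% and 22.2% at slice 5, 30.2% and 30.5% at slice 7, 46.3% and 45.2% at slice 9, then 60.3% and 60.2% at slice 12. In slice 1 it was 28.6% and 30.1%, above every library of slices 2 to 4.

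**Figure D2:**
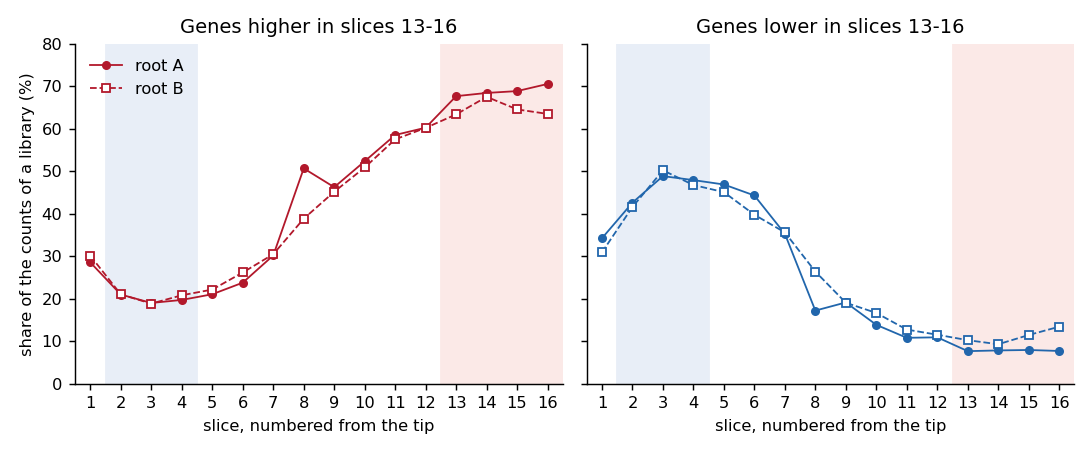
The share of a library's counts (%) that came from genes called higher (left) or lower (right) in slices 13 to 16 is plotted by slice for root A (filled) and root B (open); blue shading marks slices 2 to 4 and red shading slices 13 to 16. The share of the higher genes climbs between slices 6 and 13 in both roots, and slice 8 of root A, a library with 8262 genes at 1000000 counts, lies off the line of its neighbours.

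The 100 most abundant genes of the 2 blocks were mostly different ones. The 100 genes with the highest mean CPM in slices 13 to 16 and the 100 highest in slices 2 to 4 had 27 in common. Of the 100 most abundant in slices 13 to 16, 93 were called higher there, 1 lower and 6 were not called, and 53 differed by at least 8-fold. Their median rank in slices 2 to 4 was 647 of 19587. Of the 100 most abundant in slices 2 to 4, 63 were called lower in slices 13 to 16, 20 were higher still and 17 were not called, and 7 differed by at least 8-fold. Their median rank in slices 13 to 16 was 366.5 of 19587, still among the more abundant genes. Over all genes tested, 28.3% were called higher and 27.6% lower, and changes of at least 8-fold were called for 11.9% and 9.3%. The 7 of 100 from slices 2 to 4 lay below either 8-fold share. Being abundant in one block favours a call in that block's direction, so these counts describe the turnover and test nothing.

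A smaller number of genes was detected in one block and not in the other. Of the genes that averaged 10 CPM or more in slices 13 to 16, 220 had no count in any library of slices 2 to 4 (7425476 counts in all), and 201 of them had a count in each of the 8 libraries of slices 13 to 16. In the other direction, 105 genes with that average in slices 2 to 4 had no count in slices 13 to 16 (19443530 counts in all), and 75 of them had a count in each of the 6 libraries. A count of 0 depends on depth, and the deeper block gives the stricter 0. With every library thinned to 1008082 counts, an alternative added after the data were seen, the numbers were 257 and 144. The thinned blocks still differed in depth, with 8064656 counts in slices 13 to 16 and 6048492 in slices 2 to 4. A 0 in slices 13 to 16 thus remained the stricter one. All these numbers are out of 39510 identifiers, tested or not.

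The genes with no count in slices 2 to 4 appeared gradually behind them. Of the 220, 27 had a count at slice 5 in each root. Roots A and B had counts for 97 and 95 at slice 7, 142 and 147 at slice 9, then 177 and 201 at slice 12. Their summed level was 346 and 308 CPM in slice 7 of roots A and B, 11196 and 7770 CPM in slice 12, and 25226 and 21061 CPM in slice 16. In slice 1, 11 of them had a count in root A and 14 in root B. The 105 genes with no count in slices 13 to 16 were lost over the same stretch: roots A and B had counts for 82 and 69 at slice 5, 65 each at slice 7, 31 and 50 at slice 9, then 6 and 20 at slice 12. Their summed level was 22928 and 17210 CPM in slice 1, above the 7371 and 7523 CPM of slice 2 and the 2450 and 1548 CPM of slice 4. Their median level, however, was 1.1 and 0.8 CPM in slice 1 and 36.4 and 31.2 CPM in slice 2. The sum in slice 1 thus rested on a minority of the genes, and 55 and 58 of the 105 had a count in slice 1 at all. At 1000000 counts slice 12 of root A held 14639 genes, against 18435 in slice 12 of root B. The part of this in the lower numbers of genes in slice 12 of root A was not tested.

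The position of the change along the root was read from slices 5 to 12. For called genes that averaged 10 CPM or more and changed at least 4-fold, each slice was placed on a scale per gene and root on which 0 is the mean log2 CPM of slices 2 to 4 and 1 that of slices 13 to 16. The scale took in genes that differed by at least 1 (log2) in the root's own libraries, which left 2367 higher genes in root A and 2365 in root B, and 1512 and 1514 lower genes. The median higher gene of roots A and B stood at 0.03 and 0.05 at slice 5, 0.08 and 0.11 at slice 6, 0.26 and 0.29 at slice 7, 0.62 and 0.65 at slice 9, 0.75 and 0.73 at slice 10, then 0.87 and 0.90 at slice 12. Most of its climb thus fell between slices 6 and 10. The median lower gene stood at −0.03 at slice 5 of both roots, 0.02 and 0.09 at slice 6, 0.19 and 0.22 at slice 7, 0.65 and 0.73 at slice 9, 0.82 and 0.88 at slice 10, then 1.05 and 1.00 at slice 12. In both roots the median gene of either set passed the midpoint between slices 7 and 9. At slice 11 the median lower gene was near the mean level of slices 13 to 16 (0.97 and 0.99), where the higher genes stood at 0.80 and 0.79. That level was not settled in root B, where the median lower gene went from 1.06 at slice 14 to 0.84 at slice 16. In root A it stood at 1.00 and 0.95 in these slices.

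**Figure D3:**
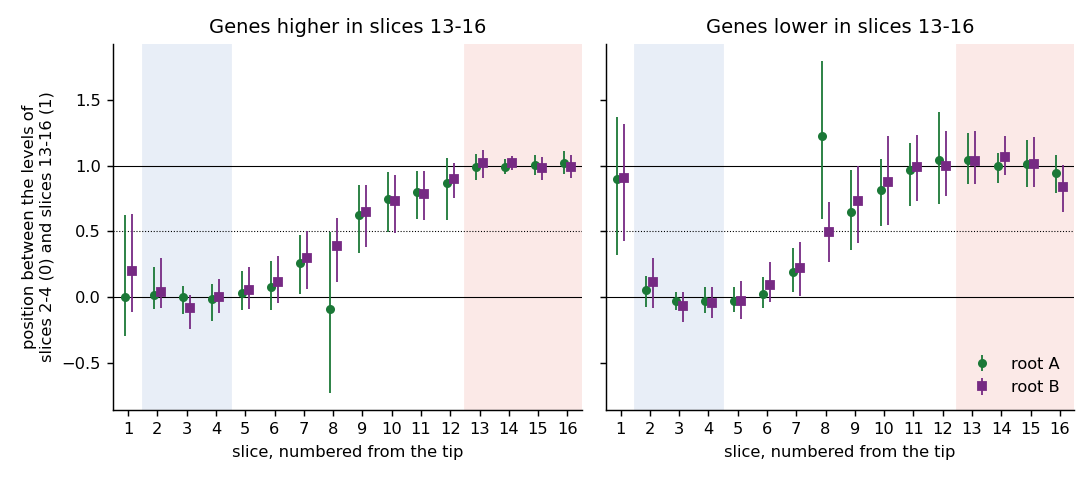
For genes called with at least a 4-fold change, the position between their own level in slices 2 to 4 (0) and in slices 13 to 16 (1) is plotted by slice; points are medians over genes, bars the interquartile range, green circles root A and purple squares root B. Values near 0 in slices 2 to 4 and near 1 in slices 13 to 16 follow from the scale; the medians cross 0.5 between slices 7 and 9, and slice 8 of root A departs from root B.

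Slice 8 of root A stood apart, with a median position of −0.09 for the higher genes and 1.22 for the lower ones, against 0.39 and 0.49 in slice 8 of root B. It held 8262 genes at 1000000 counts, and the part of this in its position was not tested. Without slice 8, a choice made after the data were seen, the first slice past the midpoint was slice 9 for 39.6% and 40.4% of the higher genes in roots A and B, and for 50% and 49.6% of the lower genes. By slice 7, 24.6% and 27.9% of the higher genes had passed the midpoint, and 14.3% and 21.6% of the lower genes. A late crossing in both roots, at slice 11 or after, was found for 275 of 2355 higher genes (11.7%) and 162 of 1506 lower genes (10.8%), and with slice 8 kept for 256 (10.9%) and 81 (5.38%). The slice of crossing was the same in both roots for 42.6% of the higher genes and 51% of the lower genes, against 32.4% and 36.1% with slice 8 kept. With slice 8 kept, the median slice of crossing was 9 for the higher genes and 8 for the lower genes in both roots, and slice 8 was the first past the midpoint for 64.6% of the lower genes in root A and 29.7% in root B. The genes were chosen on the end blocks, so that they cross somewhere in between is given by the choice, and slices 5 to 12 show where.

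The genes that were lower in slices 13 to 16 were mostly low at the very tip as well. On the same scale, the median lower gene stood at 0.90 in slice 1 of root A and 0.91 in slice 1 of root B, near its level in slices 13 to 16. In both roots 860 of 1506 lower genes (57.1%) lay past the midpoint in slice 1, and 409 (27.2%) lay at or beyond the level of slices 13 to 16. In both roots 132 (8.76%) had at least their level of slices 2 to 4 in slice 1. Most of the lower genes thus stood nearer to the older tissue than to slices 2 to 4 in slice 1 of both roots. The median higher gene stood at 0.00 and 0.20 in slice 1, and 419 of 2355 (17.8%) lay past the midpoint there in both roots. The libraries of slice 1 held 13740 genes in root A and 17487 in root B at 1000000 counts, fewer than the 18475 to 19746 of slices 2 to 4; the part of this in the low values of slice 1 was not tested.

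The slices within each block still differed along the axis. Over slices 2 to 4, 283 genes (1.44% of those tested) fell with distance from the tip and 18 (0.0919%) rose, by medians of −2.40 and 2.19 (log2 per slice; edgeR, adjusted p under 0.05). At the median the falling genes were highest in slice 1, which the trend did not use. Their median log2 CPM in roots A and B was 6.62 and 6.32 at slice 1, 5.88 and 6.08 at slice 2, 3.28 and 2.72 at slice 3, then 1.51 and 1.59 at slice 4, and it stayed at or under 2.31 in every library of slices 5 to 16. Transcripts at high level in the tip were thus still present in slice 2, although slice 1 was left out. The rising genes had no counts at the median in slice 1 and stood at 7.31 and 7.38 in slice 16. With slices 3 and 4 alone as the young block, 5211 genes were higher in slices 13 to 16 and 5292 lower. The trend's 301 calls came down to 77 when slice 4 of root A was left out, to 46 when slice 4 of root B was, and to 142 when slice 2 of root B was.

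**Figure D4:**
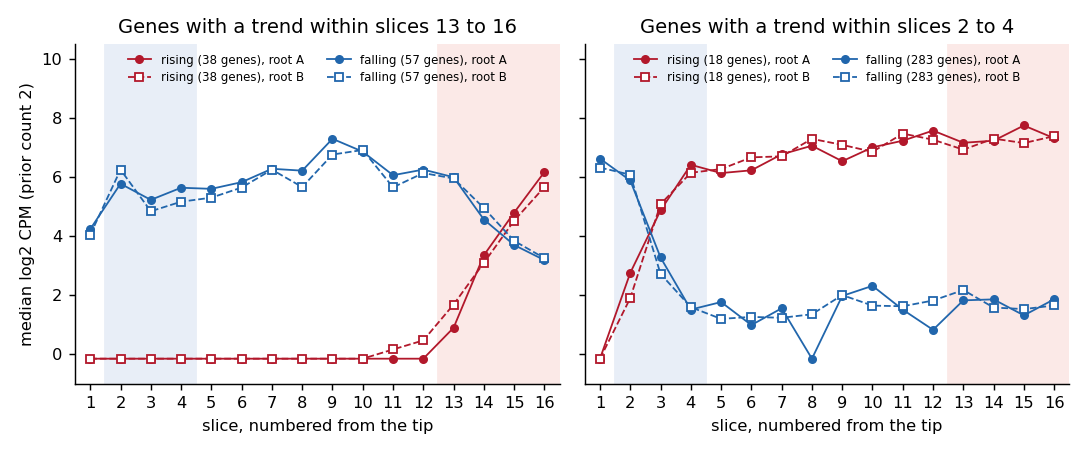
The median log2 CPM of genes called for a trend within slices 13 to 16 (left) or within slices 2 to 4 (right) is plotted by slice, for rising genes (red) and falling genes (blue), root A filled with solid lines and root B open with dashed lines. The 283 genes that fall over slices 2 to 4 are highest in slice 1, and the 38 genes that rise over slices 13 to 16 lie at the bottom of the scale up to slice 10.

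The slices of the older block also differed among themselves. Over slices 13 to 16, 38 genes (0.194%) rose with distance from the tip and 57 (0.291%) fell, by medians of 1.46 and −1.09 (log2 per slice; edgeR, adjusted p under 0.05). The rising genes had no counts at the median in slices 1 to 10 and, in roots A and B, stood at 0.90 and 1.68 (log2 CPM) at slice 13, then 6.17 and 5.66 at slice 16. The falling genes had median levels of 7.29 and 6.76 (log2 CPM) at slice 9, 5.99 and 5.95 at slice 13, then 3.18 and 3.25 at slice 16. With root as a block the counts were 98 and 105. The count rests on single libraries. Leaving out slice 16 left edgeR with 0 genes (root A; 1574 at an unadjusted p under 0.05) or 19 (root B), leaving out slice 13 with 18 (root A) or 2 (root B), and leaving out slice 14 with 59 (root A) or 56 (root B).

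The 4 genes with the highest and lowest changes are given by identifier, since nothing in the files or the reference names them. They were taken from 4266 higher and 3287 lower genes with an adjusted p under 0.05, an average of 10 CPM or more over both blocks' libraries and the same direction in each root. Being extremes of this comparison, they illustrate its range and are no independent support. Whether near-identical copies share reads with them was not looked up.

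Zm00001d022283 was an abundant transcript of the older tissue. Its level ran from 3076 to 4930.5 CPM in slices 13 to 16 (median 3555, mean 3779 ± 702 SD, n = 8 libraries), against 0 CPM in all 6 libraries of slices 2 to 4 (63801 against 0 counts). Every library of slices 13 to 16 was high and the groups did not overlap. The level was at least 11208-fold higher in slices 13 to 16, taking 3 counts over the 6 libraries of slices 2 to 4 as the floor (edgeR, adjusted p = 4.77e-10). It came up late: roots A and B had 0 CPM at slice 8, 18.9 and 25.9 CPM at slice 9, 234 and 40.6 CPM at slice 10, then 1730.4 and 833 CPM at slice 12. Slice 1 held 30.3 CPM in root A (27 counts) and none in root B, and slice 5 of root B held 3 counts.

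Zm00001d017485 followed the same direction with an earlier start. Its level ran from 843 to 1574 CPM in slices 13 to 16 (median 1194, mean 1169 ± 279 SD, n = 8), against 0 CPM in all 6 libraries of slices 2 to 4 (19674 against 0 counts), at least 3456-fold higher by the same floor (edgeR, adjusted p = 1.12e-15). The groups did not overlap. Behind slice 4 it was first seen with 2 counts in slice 6 of root A, then at 2.45 and 2.54 CPM in slice 7 of roots A and B, and stood at 143.6 and 104.6 CPM in slice 9, 198 and 175 CPM in slice 11 and 466 and 502 CPM in slice 12. Within slices 13 to 16 root B lay above root A in each slice.

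Zm00001d004729 was a transcript of the young tissue. Its level ran from 0 to 1.55 CPM in slices 13 to 16 (median 0, n = 8), against 673 to 2949 CPM in slices 2 to 4 (median 986, mean 1350.0 ± 882 SD, n = 6). The groups did not overlap. Slices 13 to 16 held 4 counts in all and slices 2 to 4 held 11239. The change was −12.93 ± 1.00 (edgeR log2 change and SE derived as above, adjusted p = 4.85e-09). The level in slices 2 to 4 was 5331 times that in slices 13 to 16, with a 95% counting interval of 2082 to 19570.4. The roots differed at the tip, where slice 1 had 8644 CPM for root A against 355 CPM for root B, and lay close together by slice 7 at 80.7 and 87.4 CPM.

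Zm00001d025873 had no count in any library of slices 13 to 16, against 211 to 696 CPM in slices 2 to 4 (median 364, mean 406 ± 190.1 SD, n = 6; 0 against 3590 counts). It was at least 2271-fold lower in slices 13 to 16, taking 3 counts over the 8 libraries as the floor (edgeR, adjusted p = 7.35e-07). Slices 5 and 6 still held 624 and 603 CPM in root A and 273 and 182 CPM in root B. Roots A and B then had 23.4 and 14.8 CPM at slice 9, 3.26 and 3.46 CPM at slice 10 and none from slice 11 on. In slices 2 to 6 root A lay above root B in each slice, and in slice 1 root A held 217 CPM and root B none. Intervals and floors cover counting error only.

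**Figure D5:**
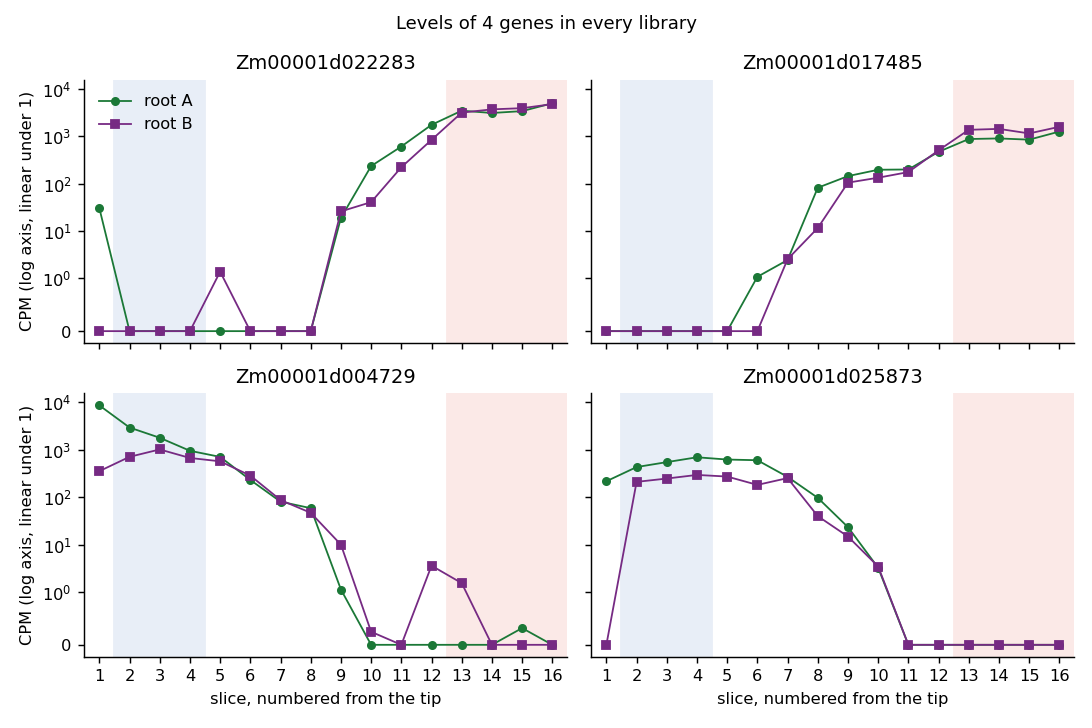
The CPM of 4 genes is plotted for every slice on a log axis that is linear under 1, with green circles for root A and purple squares for root B, and shading for slices 2 to 4 (blue) and 13 to 16 (red). The upper genes have lowest levels of 3076 and 843 CPM in slices 13 to 16 and are at 0 CPM in slices 2 to 4, and the lower genes reach at most 1.55 CPM in slices 13 to 16.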

How the data were processed

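The authors deposited whole-number counts per gene, for 39510 identifiers in 32 libraries. The submitters' processing notes name Trimmomatic, kallisto 0.43 and DESeq2 without saying what each did. Genome build, annotation, strand and any rounding of the counts: not given in the sources used here. The labels name the Ovation RNA-Seq System V2 for library preparation. All columns were matched to samples by their labels (0 left out).

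The test was edgeR's (4.0.16, R 4.3.3) quasi-likelihood fit, robust and with legacy = FALSE, on all 32 libraries with the 16 slices as groups. Genes were kept by filterByExpr (minimum count 10, minimum total 15) and libraries scaled by TMM. Each identifier was counted as a gene, although some had identical values. GRMZM5G838963 and GRMZM5G859187, for example, were both called higher, each with 854 CPM in slices 13 to 16 and 468 CPM in slices 2 to 4. Contrasts were the mean of slices 13 to 16 minus that of slices 2 to 4, and a linear trend within each block. The means are of log2 slice levels, so a called direction can differ from that of the mean CPM. Zm00001d001774, for example, was called higher (2.42, log2) with mean CPM of 71.0 in slices 13 to 16 and 79.1 in slices 2 to 4. A prior count of 2 was used for log2 CPM. The slice fit, its contrast and both trends were tried on simulated counts with known changes and no root effect. The other steps and the alternatives were not simulated. DESeq2 1.42.0 was an alternative. Where 1 root was tested alone, its slices served as replicates.

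The comparison, the lists and the rule for named genes were chosen with earlier results of these data known. That rule takes the 2 highest and 2 lowest changes. No identifier matched the 49888 genes of the reference table (assembly Zm-B73-REFERENCE-NAM-5.0), so 33 gene lists, cell type markers included, went unused.

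The labels give 1 root to each letter, so equal letters pair the libraries. As a check, the deviations from the slice means were correlated between slices, over 21 pairs of slices (median 0.195, 0.0693 to 0.452). The 12 pairs across the blocks had a median of 0.149 (0.0693 to 0.213). Correlations were higher within slices 13 to 16 (0.285 to 0.452) and ran from 0.195 to 0.278 within slices 2 to 4. Libraries were amplified and the labels name no molecular identifiers, so reads do not count independent molecules.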

Additional observations from a re-analysis of the deposited data

Results flagged for a closer look

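Zm00001d004729 in slice 13 of root B was flagged because it lay far from the other 7 libraries of slices 13 to 16, at 1.55 CPM (3 counts). The next highest library, slice 15 of root A, held 0.318 CPM (1 count) and the other 6 held none. The gap was 0.795 of the range of the group. Slice 12 of root B, the slice before it, held 3.61 CPM, against 0 CPM in slice 12 of root A. With 21 groups of values examined, about 1 in 20 is flagged by chance.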

How the results depend on the processing

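The direction and call of each of the 4 named genes were the same under 16 alternatives and in 14 fits without 1 library. The counts of genes higher, lower and changed between slices 13 to 16 and slices 2 to 4 stayed within 1.5 times in each of 14 fits without 1 library (9921 to 10938 changed). They also did in the other alternatives, except that root B alone gave 3615 higher and 3542 lower, 7157 in all, and a minimum mean of 10 CPM, which tests fewer genes, gave 3595 lower. With root as a block (paired) 5747 genes were higher and 5596 lower; the block changed no call of the 4 genes, and its effect on the trends is given next. More genes were lower than higher with DESeq2 (4890 higher, 5946 lower), its size factors (4912, 6156), library totals alone (4199, 6845), thinned counts (5253, 5552), the 14 libraries alone (5758, 5833), no filter (5489, 5543), slices 3 and 4 as the young block (5211, 5292), and when slice 8 of root A (5721, 5891), slice 13 of root B (5179, 5296) or slice 15 of either root (A 5213, 5271; B 5425, 5513) was left out.

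The trend over slices 13 to 16 (95 genes) moved most: 295 genes with the 14 libraries alone, 152 with DESeq2, 52 with thinned counts, 208 with no filter, 21 with the older dispersion step, 203 with the replicate block, 279 without slice 8 of root A, and 0 to 109 with 1 compared library left out. The trend over slices 2 to 4 (301 genes) gave 582 with the 14 libraries alone and 445 with the replicate block. It gave 151 with the older dispersion step, 520 without slice 8 of root A and 46 to 321 with 1 library left out. The cause was not tested. Where 1 library was left out, the lone library of its slice is assumed to vary like the other slices. Thinned counts and library totals alone were added after the data were seen.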

Other observations

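Genes with consecutive identifier numbers shared the direction of large changes more often than pairs of genes at large. Among 8631 pairs of tested genes with consecutive numbers, 312 (3.61%) both changed by at least 8-fold in the same direction between slices 13 to 16 and slices 2 to 4, against 2.32% of all possible pairs of tested genes. Pairs that both changed by at least 8-fold in opposite directions made up 1.91% of the consecutive pairs (165) and 2.25% of all pairs. Without a minimum change, 9.36% of consecutive pairs were both higher and 8.6% both lower, against 8.02% and 7.71% of all pairs. These shares are descriptions without a test. Whether such genes lie side by side in the genome, or are copies between which reads were divided, was not looked up.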
